A study of Monascus purpureus with 9 samples.

Results

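A group of 127 genes of middle abundance in the wild type lost most of their transcript in mycelium of Monascus purpureus lacking Set1 and in mycelium lacking Swd3, and genes in runs of 3 or more consecutive numbers that fell in both were left out of the group. They are 127 of the 8918 rows named gene_ in a table of 9869 rows. The genes were chosen by their measured values, namely the mean FPKM (fragments scaled by transcript length and library size) of each group. A member had a wild-type mean of at least 5 and under 100 FPKM and a log2(FPKM + 1) change of -1.5 or lower in each knockout, with both changes less than 0.585 apart. Genes in a run of 3 or more consecutive gene numbers that all changed by -1 or lower in both knockouts were left out.

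The series compared Set1 knockout, Swd3 knockout and wild-type (WT) strains, each with 3 RNA-seq libraries of mycelium grown for 2 days in PDB medium. Its labels name no further allele, agent or treatment, and they mention neither separate cultures behind the replicates nor how many independent strains carry each deletion. The errors given here measure how far replicate libraries lie apart, and that scatter could be technical.

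Set1 and Swd3 belong to COMPASS, a complex known from yeast that methylates histone H3 near the start of transcribed genes. Set1 is the enzyme that transfers the methyl groups, and Swd3 is a WD40-repeat protein that helps to hold the complex together. In filamentous fungi the complex has been studied for its part in growth, development and secondary metabolism, and M. purpureus is grown for its azaphilone pigments.

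The table pairs no row with a gene name, so none of the 127 can be assigned a function, the deletion targets were not checked, and the mycelium label could not be set against marker genes. Of the 9869 identifiers, 0 matched the 9270 entries of the reference gene list. The summed FPKM of a library was 722396 to 729434 in the Set1 knockout, 708044 to 712844 in the Swd3 knockout and 705678 to 715570 in WT. Read depth is unknown, and a level in these bulk samples cannot tell fewer expressing cells from less transcript per cell.

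Each criterion of the choice removed a known number of genes. Of the 8918 gene_ rows, 5629 had a WT mean in the chosen range, and 178 of these fell far enough in the Set1 knockout. The Swd3 criterion removed 29 more and left 149. The limit on the difference between both falls removed 1, gene_4619, and the exclusion of runs removed the last 21. Those 21 genes had levels and falls in the same range as the members, with a median of 24.8% of the WT mean kept in the Set1 knockout and 23.4% in the Swd3 knockout, and a median WT level of 29.6 FPKM. Their runs were short, since 15 of them lay in runs of 3, 3 in runs of 4 and 3 in runs of 5. Falls of the same size were also met by 42 gene_ rows at 100 FPKM or more in WT and by 2 rows under 5 FPKM, in or out of runs.

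One member owed its place to a single library. Gene_57 stood at 0, 0 and 0.526 FPKM in the Set1 knockout and at 0, 0 and 0.617 FPKM in the Swd3 knockout, against 1.81, 33.5 and 0.571 FPKM in WT. Its Swd3 knockout library 3 lay above its WT library 3, and only WT library 2 was high. Without that library its log2 change was -0.90 in the Set1 knockout and -0.86 in the Swd3 knockout, short of the limit. It reached 1 FPKM in too few libraries to be tested (the filter asked for 1 FPKM in 3 libraries), and it was the only member listed at 0 in any library. The ranges below are given for the other 126 members where this gene would set them.

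Choosing mid-level genes with large falls placed members lower in the expression range in the knockouts than in WT. The levels and ranks given here describe that choice. The median member stood at 7.41 FPKM in the Set1 knockout, 7.08 FPKM in the Swd3 knockout and 32.4 FPKM in WT. Among all gene_ rows ordered by level, the median member lay at percentile 29.6 in the Set1 knockout, 27.6 in the Swd3 knockout and 66.2 in WT. Members below the middle of that order numbered 106 of 127 in each knockout and 22 of 127 in WT. The 5502 other gene_ rows of the same WT range had medians of 18.6 FPKM in the Set1 knockout, 19.2 FPKM in the Swd3 knockout and 21.6 FPKM in WT.

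The values of each library describe the chosen shift and add no support for it, since the choice used the means of these same libraries. The median over the 127 genes was 7.92, 7.11 and 7.45 FPKM in the Set1 knockout libraries, 7.75, 7.07 and 6.67 FPKM in the Swd3 knockout libraries, and 32.4, 30.8 and 32.8 FPKM in the WT libraries. All 6 knockout values lay far below the lowest WT value. Together the members made up 0.157 ± 0.00533% of the summed FPKM in the Set1 knockout, 0.158 ± 0.00719% in the Swd3 knockout and 0.695 ± 0.0167% in WT (SD, n = 3 each).

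**Figure D1:**
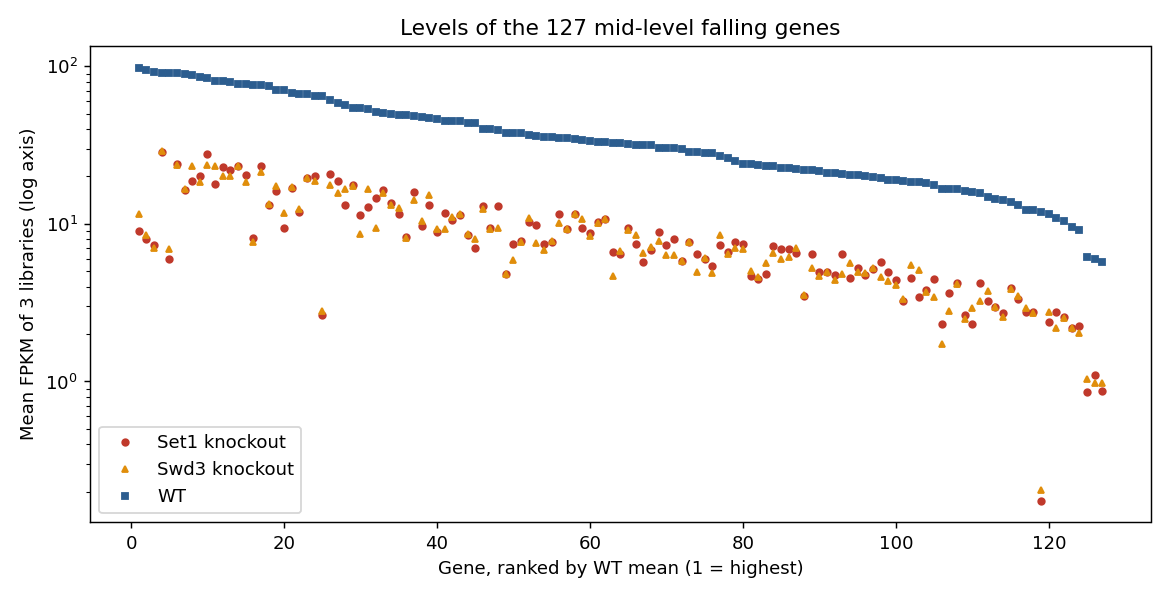
Mean FPKM of the 3 libraries of each group (log axis) for the 127 genes, ranked by their WT mean. As the choice required, knockout points of both strains run below the WT points along the whole range. The pair of points lowest on the plot is gene_57, whose WT mean rests on 1 library.

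By the amount of transcript left, members kept a small share of their level in WT, as the choice of members required. The median share of the WT mean kept was 23.6% in the Set1 knockout and 23.5% in the Swd3 knockout. In the other rows of the same WT range the medians were 81.0% and 83.3% in the same order of strains. Over the 126 members the share ran from 4.07% to 33.7% in the Set1 knockout and from 4.33% to 33.5% in the Swd3 knockout. The median log2 changes of the 127 were -1.88 in the Set1 knockout and -1.89 in the Swd3 knockout, against -0.07 and -0.06 over all gene_ rows. These values restate the choice and carry no test.

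**Figure D2:**
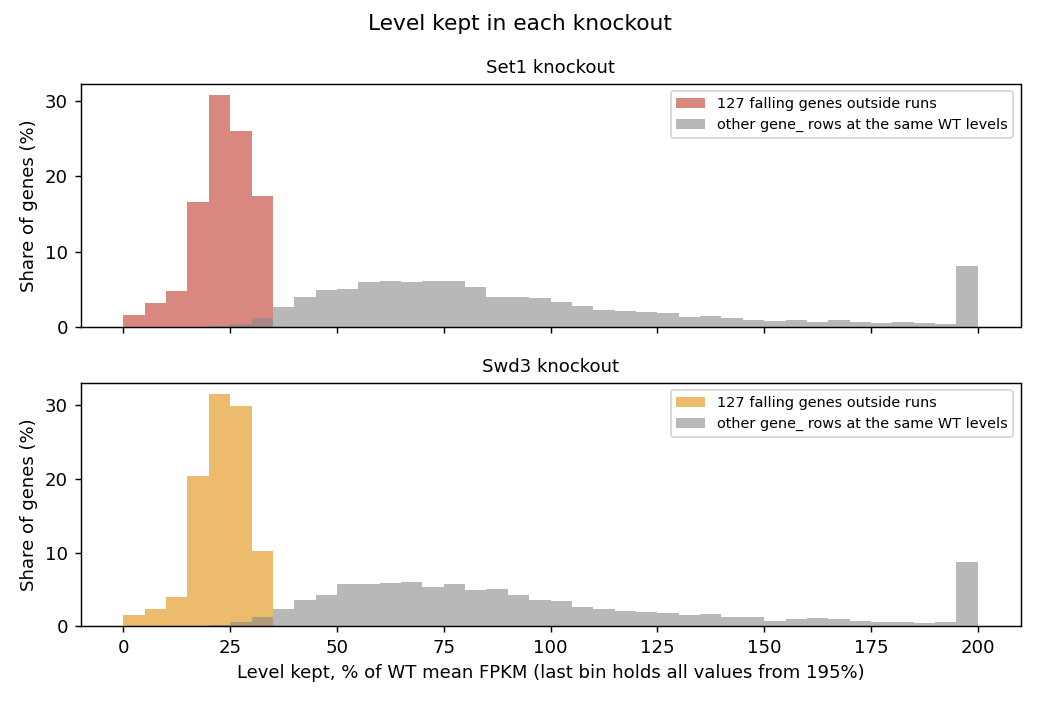
Share of genes (%) by the level kept in each knockout, as a percentage of the WT mean FPKM, for the 127 members (coloured) and the 5502 other gene_ rows of the same WT levels (grey). Members were chosen for low values here, with medians of 23.6% in the Set1 knockout and 23.5% in the Swd3 knockout.

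In the fit across all genes, limma called 126 of the 126 tested members lower in the Set1 knockout than in WT, where 43.3% of all 9153 tested genes were called lower. In the Swd3 knockout it also called 126 of 126 lower, where 42.5% of all tested genes were. All 126 had each Set1 knockout library below each WT library, as did 43.9% of all tested genes, and all 126 had each Swd3 knockout library below each WT library, as did 42.4%. The choice of members used these contrasts, so the counts add nothing to it. The lowest WT library was at least 2.37 times the highest knockout library in each of the 126 genes, with a median of 3.32 times. A wide gap follows from the choice of large falls in the means of these same libraries. Gene_57, at 0.925 times, was left out of this range.

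Members differed in how far they fell. By the ratio of mean FPKM, 60 of the 126 fell at least 4-fold in both knockouts and 40 fell under 4-fold in both. Another 11 reached 4-fold in the Set1 knockout alone and 15 in the Swd3 knockout alone, which is a count at a limit and not a test of a difference between strains. At least 8-fold falls in both knockouts were found for 6 genes. All 6 were among the 34 members at 50 FPKM or more in WT, and none was among the 92 below that level. Over all 127 the WT level and the share kept were nearly unrelated, with Spearman's rho of 0.10 in the Set1 knockout and 0.12 in the Swd3 knockout (a description over genes that share the same libraries, with the WT mean on both axes).

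Gene_4980 had the largest fall. It stood at 2.65, 2.79 and 2.44 FPKM in the Set1 knockout and 2.88, 2.66 and 2.84 FPKM in the Swd3 knockout, against 65.5, 63.7 and 64.5 FPKM in WT. Its 9 values were tight within each group, and its mean was 24.6-fold lower in the Set1 knockout and 23.1-fold lower in the Swd3 knockout than in WT.

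Gene_3508 followed at 6.28, 5.67 and 6.03 FPKM in the Set1 knockout and 8.29, 6.10 and 6.41 FPKM in the Swd3 knockout, against 87.3, 97.2 and 86.7 FPKM in WT. The first Swd3 library was the highest of the 6 knockout libraries, and the falls of the means were 15.1-fold in the Set1 and 13.0-fold in the Swd3 knockout. Gene_1109 had 7.87, 6.94 and 7.28 FPKM in the Set1 knockout and 7.75, 7.16 and 6.34 FPKM in the Swd3 knockout, against 93.9, 86.2 and 96.0 FPKM in WT. The knockout libraries overlapped each other, and the falls were 12.5-fold in the Set1 and 13.0-fold in the Swd3 knockout.

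Gene_4833 had 8.73, 7.14 and 8.28 FPKM in the Set1 knockout and 8.67, 9.52 and 7.27 FPKM in the Swd3 knockout, against 97.2, 88.8 and 98.4 FPKM in WT, falls of 11.8-fold and 11.2-fold. Gene_2656 was the most abundant member in WT, with 9.005, 9.27 and 8.57 FPKM in the Set1 knockout and 11.5, 10.9 and 12.2 FPKM in the Swd3 knockout, against 96.3, 95.7 and 102 FPKM in WT. Each Swd3 knockout library of gene_2656 lay above each Set1 knockout library, and the falls were 10.97-fold in the Set1 and 8.50-fold in the Swd3 knockout. The sixth gene, gene_8859, was named after its values were seen and averaged 8.17 ± 0.477 FPKM in the Set1 knockout, 7.72 ± 0.124 FPKM in the Swd3 knockout and 75.8 ± 4.48 FPKM in WT (SD, n = 3 each).

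**Figure D3:**
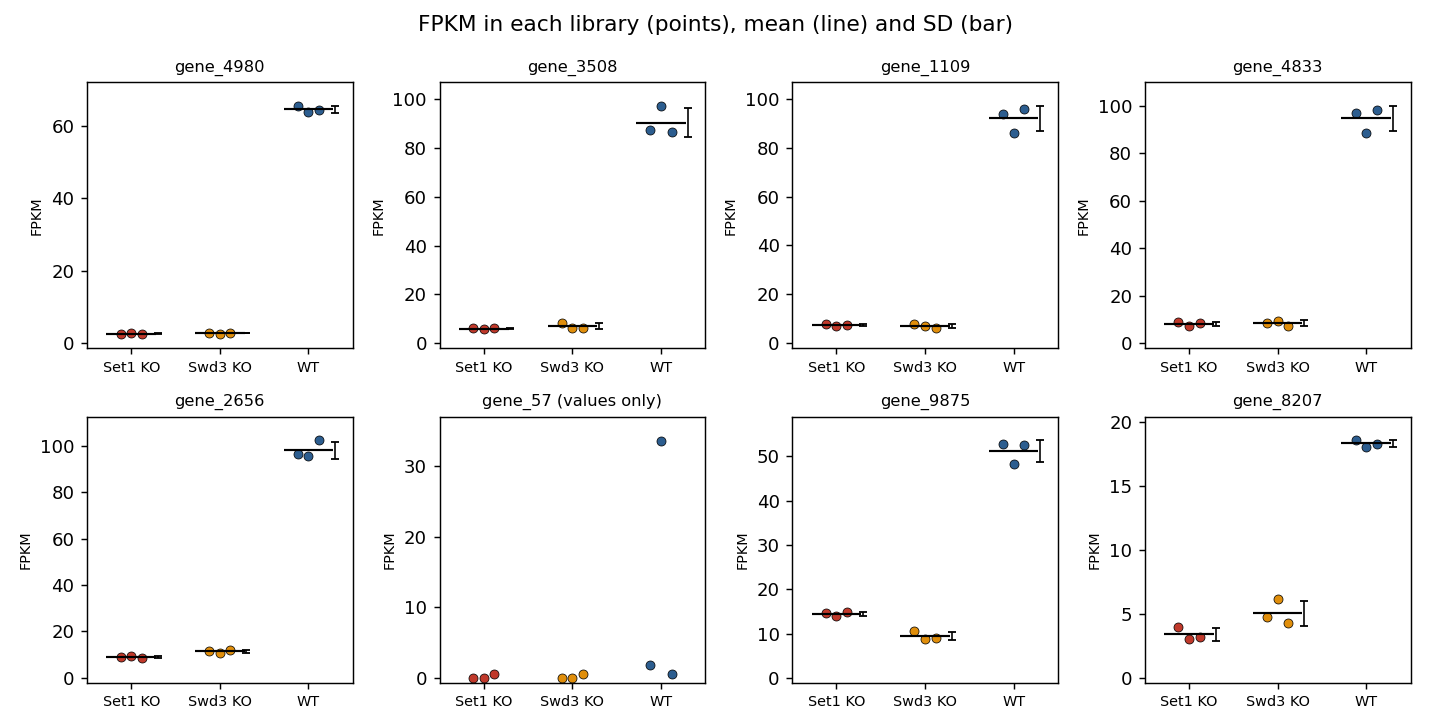
FPKM of each library (points), group mean (line) and SD (bar, n = 3) for the 5 members with the largest falls apart from gene_57, for gene_57 (points only) and for gene_9875 and gene_8207, which differ most between the knockouts in either direction. For gene_57 only WT library 2, at 33.5 FPKM, is high.

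The typical member was gene_9676, whose mean change over both knockouts was the median of the 127. It had 23.8, 23.7 and 24.4 FPKM in the Set1 knockout and 24.9, 23.4 and 22.4 FPKM in the Swd3 knockout, against 95.7, 84.3 and 90.5 FPKM in WT. The knockouts kept 26.6% and 26.1% of the WT mean in the same order, and their libraries overlapped.

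The genes nearest to each limit of the choice differed by varying amounts. The member of lowest WT level, gene_1545, averaged 0.875 FPKM in the Set1 knockout, 0.980 FPKM in the Swd3 knockout and 5.75 FPKM in WT, and gene_7551, just outside, averaged 0.245, 0.400 and 4.02 FPKM in the same order. At the upper limit gene_2656 lay inside, and gene_6748, with means of 28.2 FPKM in the Set1 knockout, 35.7 FPKM in the Swd3 knockout and 109 FPKM in WT, lay outside. The smallest fall inside was that of gene_6733, with log2 changes of -1.505 in the Set1 knockout and -1.50001 in the Swd3 knockout. The nearest gene outside, gene_3397, had -1.504 and -1.497. The widest difference between both changes was 0.57 inside, for gene_9875, and 0.84 outside, for gene_4619, which averaged 21.6 FPKM in the Set1 knockout, 11.6 FPKM in the Swd3 knockout and 83.2 FPKM in WT.

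Both knockouts left similar amounts of each transcript, within the limit set by the choice. The ratio of the Swd3 to the Set1 knockout mean had a median of 0.991 over the 126 members and ran from 0.652 to 1.48. Across the 127 genes the levels in both strains had Spearman's rho of 0.978, a description over genes whose wide range of levels comes from WT. The absolute difference between both log2 changes had a median of 0.09 in members and 0.10 in the other rows of the same WT range, and 99.1% of those other rows lay inside the same limit, so the limit was not a narrow one.

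In the direct comparison, 16 of the 126 tested members differed between the Swd3 and the Set1 knockout (limma, adjusted p under 0.05), or 12.7%, where 12.8% of all tested genes did. In this fit the share was that of the background. Of the 16, 6 were higher and 10 lower in the Swd3 knockout. The count and split followed the libraries and the scaling. It was 8 without Set1 knockout library 3 and 10 without Set1 knockout library 1. It was 10 without Swd3 knockout library 2 and 25 without Swd3 knockout library 1. The counts over all tested genes, 610 higher and 563 lower in the Swd3 knockout with every library, moved too. In the same order of libraries left out they were 386 and 371, 503 and 406, 362 and 371, and 501 and 679. The rise to 25 members was not matched by a rise of that size over all genes, and it was not tested. The member count was also 8 when WT was left out of the fit, with 564 higher and 509 lower over all tested genes. With all libraries set to a common total 8 members were higher and 6 lower (782 and 437 over all tested genes). With scaling by the median of ratios 6 were higher and 16 lower (625 and 690). With quantile normalization 6 were higher and 18 lower (746 and 770). Libraries of both knockouts did not overlap in 28 of the 126 members (22.2%), where this held for 28.3% of all tested genes.

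Over all 127 members the level was lower in the Swd3 than in the Set1 knockout for 73 (57.5%), and over the other rows of the same WT range for 2353 of 5502 (42.8%). With a common total 55 of 127 members were lower in the Swd3 knockout, against 1897 of 5502, so the majority among members turned with the scaling. With the median of ratios the numbers were 81 and 2607, and with quantile normalization 87 and 2809.

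Of the members lower in the Swd3 knockout, gene_9875, gene_9993 and gene_327 differed most. Gene_9875 had 10.6, 8.84 and 8.94 FPKM in the Swd3 knockout and 14.7, 14.0 and 14.8 FPKM in the Set1 knockout, with 52.9, 48.3 and 52.6 FPKM in WT. The knockout libraries did not overlap. Gene_9993 had 8.30, 10.6 and 9.51 FPKM in the Swd3 knockout and 13.2, 13.2 and 12.9 FPKM in the Set1 knockout, again without overlap. Gene_327 had 6.27, 4.38 and 3.45 FPKM in the Swd3 knockout and 7.98, 6.10 and 5.82 FPKM in the Set1 knockout, and its libraries did overlap. The difference of gene_327 did not pass in the fit (limma, adjusted p 0.086).

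In the other direction gene_8207 had 4.75, 6.16 and 4.28 FPKM in the Swd3 knockout and 3.99, 3.03 and 3.22 FPKM in the Set1 knockout, with 18.6, 18.1 and 18.3 FPKM in WT. Gene_8605 had 24.9985, 24.1 and 21.1 FPKM in the Swd3 knockout and 19.2, 17.5 and 17.1 FPKM in the Set1 knockout. Gene_129 had 17.2, 15.8 and 16.8 FPKM in the Swd3 knockout and 12.9, 12.2 and 13.4 FPKM in the Set1 knockout. In all 3 genes each Swd3 library lay above each Set1 library, and the Swd3 over Set1 ratios of means were 1.48, 1.305 and 1.29 in the order given. These 6 genes were picked for their differences, so the differences are a description.

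**Figure D4:**
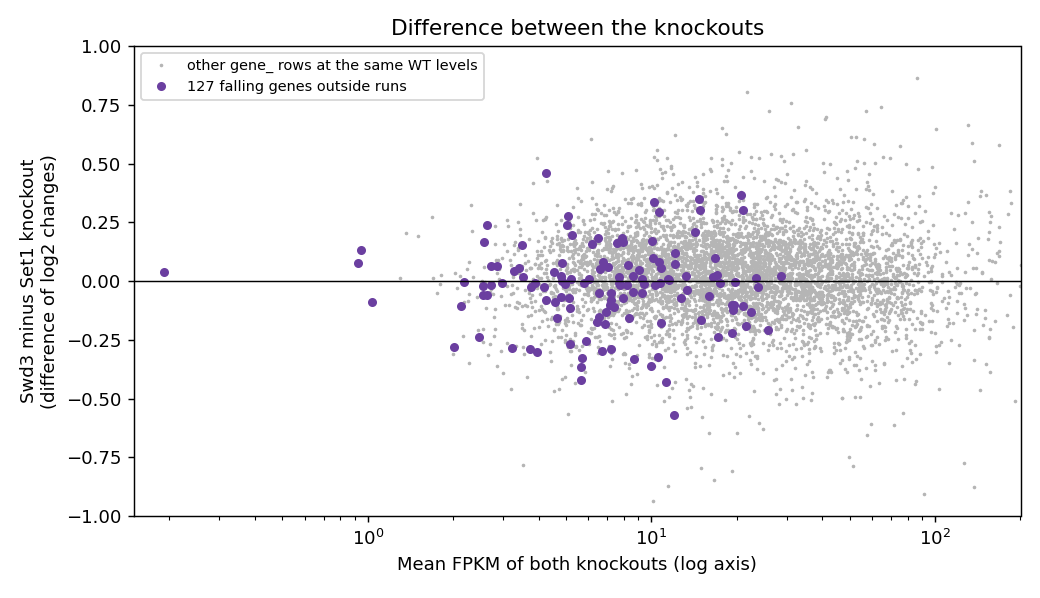
Difference between the log2 changes of both knockouts (Swd3 minus Set1) against the mean FPKM of both knockouts (log axis), for the 127 members (purple) and other gene_ rows of the same WT range (grey). Members spread around 0 from -0.57 to 0.46, and 11 of the 5502 other rows lie beyond the plotted range of differences, while 27 lie above the upper limit of the level axis and 0 below its lower limit.

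The choice of members used all 9 libraries, so it was repeated on 6 libraries at a time, and the falls were read in the other 3. Chosen without the libraries numbered 1, there were 140 genes, 124 of them members. In the libraries numbered 1 their median log2 change was -1.80 in the Set1 knockout and -1.80 in the Swd3 knockout, against -1.86 and -1.89 in the libraries that chose them. All 140 had a log2(FPKM + 1) change of -1 or lower in both strains, and 109 passed -1.5 in both. No matching count over other rows was made for these limits, here or below, so such counts are a description.

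Chosen without the libraries numbered 2, there were 133 genes, 123 of them members, with medians of -1.84 in the Set1 knockout and -1.81 in the Swd3 knockout in the libraries left out. A change of -1 or lower in both was seen for 132 of 133, and 102 passed -1.5 in both. Chosen without the libraries numbered 3, there were 121 genes, 116 of them members, with medians of -1.91 in the Set1 knockout and -2.002 in the Swd3 knockout. Of these 121, 119 had a change of -1 or lower in both, with 112 past -1.5 in both. The weakest changes in the libraries numbered 3, both of gene_57, were -0.04 in the Set1 knockout and 0.04 in the Swd3 knockout. The labels name no shared batch for a number, so the libraries left out are further libraries of the same strains and carry no independent strain or condition.

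Scatter between libraries was small beside the falls, whose size was set by the choice. The SD of log2(FPKM + 1) had a median over members of 0.09 in the Set1 knockout, 0.12 in the Swd3 knockout and 0.07 in WT (n = 3 libraries each). Other gene_ rows of the members' own level in each group (between their quartiles) had medians of 0.11, 0.13 and 0.08 in the same order, so members were about as steady as rows of like level. The least steady of the 126 were of low level. Gene_7550 averaged 0.860 ± 0.137 FPKM in the Set1 knockout, 1.04 ± 0.501 FPKM in the Swd3 knockout and 6.12 ± 1.49 FPKM in WT (SD, n = 3 each), and gene_4006 averaged 2.58 ± 1.09 FPKM in the Set1 knockout. Both were singled out after their values were seen.

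Libraries moved members together with the other gene_ rows of the same WT range. Relative to the mean of its group, the median member stood 0.05 higher in Set1 knockout library 1 and 0.08 higher in Swd3 knockout library 1, and 0.07 lower in Swd3 knockout library 3 and 0.05 lower in WT library 2 (log2 units). The other rows of the same WT range stood 0.04 and 0.08 higher, and 0.07 and 0.04 lower, in the same libraries. The part of these shifts in the small differences between the knockouts was not tested.

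Members were spread over the gene numbering, which the table does not tie to the genome. Their numbers ran from 57 to 9993, in a table whose numbers run from 2 to 10020 with 1101 numbers that have no row analysed here. The median gap between neighbouring members was 57 numbers and the largest 416. The share of members among rows of the WT range varied between stretches of 1000 numbers. It was 4.05% from 7001 to 8000, with 22 members, and 0.907% from 2001 to 3000, with 5 members, and lay between 1.75% and 3.33% in the other full stretches.

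Lone members were the larger part, but the exclusion of runs favoured them, and no matching count is given for other rows. For 99 of the 127, no listed neighbour had a log2(FPKM + 1) change of -1 or lower in both knockouts, although only 79 of the 99 had both neighbouring numbers listed, and the other 28 lay in runs of 2, the longest run the choice allowed. Of those 28, 10 formed 5 pairs of members, and 18 stood beside a gene that was no member. In 9 of these 18 the neighbour's WT mean was in the chosen range and its fall was too small. In 7 its WT mean was 100 FPKM or more, and in 2 it was under 5 FPKM. Among these 7, gene_4445, gene_5759 and gene_8058 also fell too little in both knockouts. Gene_4733 and gene_7629 also fell too little, but in the Swd3 knockout only, with log2 changes there of -1.499 and -1.476. Beside gene_9769, gene_9768 averaged 54.2 FPKM in the Set1 knockout, 55.8 FPKM in the Swd3 knockout and 253 FPKM in WT. It had the highest WT mean and the largest falls of these 18 neighbours. The genes given by number here were named after their values were seen.

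Of the 226 rows numbered directly below or above a member, 9 (3.98%) had a log2(FPKM + 1) change of 1 or higher in both knockouts. Beside the other genes of the WT range 954 of 9927 rows (9.61%) had. Those other genes include rising ones, with log2 changes up to 6.4 in the Set1 knockout and 7.0 in the Swd3 knockout. The lower share beside members is therefore not read as a trait of members. A change of -1 or lower in both was found in 28 of 226 (12.4%) and 873 of 9927 (8.79%), but the exclusion of runs limits the first number. By the ratio of mean FPKM, a measure added after the data were seen, 32 of 226 (14.2%) and 1060 of 9927 (10.7%) were at 0.5 or lower in both, and 3 of the 99 lone members had such a neighbour. The rising neighbours stood beside 8 members, and 1 member had such a neighbour on both sides. Neighbouring rows are not independent, and no test was made of either share.

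The rows directly beside the 5 pairs of adjacent members, where listed, had log2 changes between -0.72 and 1.43. Gene_4248 had 10.9, 8.96 and 7.84 FPKM in the Set1 knockout and 10.1, 8.43 and 9.32 FPKM in the Swd3 knockout, against 36.6, 31.7 and 36.5 FPKM in WT. Gene_4249 beside it had 12.7, 10.6 and 10.96 FPKM in the Set1 knockout and 11.9, 12.04 and 10.6 FPKM in the Swd3 knockout, against 44.1, 44.8 and 45.6 FPKM in WT. Both genes kept about the same share of the WT mean in each knockout, between 25.5% and 26.6%. The rows on either side, gene_4247 and gene_4250, had log2 changes of -0.22 and -0.47 in the Set1 knockout and -0.19 and -0.35 in the Swd3 knockout.

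In the pair of gene_7830 and gene_7831 the strains differed in opposite directions. Gene_7830 averaged 7.58 ± 0.981 FPKM in the Swd3 knockout, 9.80 ± 1.37 FPKM in the Set1 knockout and 36.0 ± 2.83 FPKM in WT. Gene_7831 averaged 5.67 ± 0.790 FPKM in the Swd3 knockout, 4.50 ± 0.195 FPKM in the Set1 knockout and 20.5 ± 2.61 FPKM in WT (SD, n = 3 each). Neither difference between the knockouts passed in the fit. The row numbered below this pair, gene_7829, was higher in the knockouts, with 11.2, 11.02 and 10.4 FPKM in the Set1 knockout and 14.3, 12.3 and 11.9 FPKM in the Swd3 knockout, against 4.26, 3.66 and 4.49 FPKM in WT.

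Members of a pair could differ much in level. Gene_7739 averaged 23.1 ± 0.803 FPKM in the Set1 knockout, 20.1 ± 1.101 FPKM in the Swd3 knockout and 80.2 ± 2.19 FPKM in WT, and gene_7740 averaged 2.77 ± 0.593, 2.94 ± 0.357 and 12.2 ± 1.02 FPKM in the same order (SD, n = 3 each). Gene_4005 averaged 9.42 ± 1.16 FPKM in the Set1 knockout, 11.8 ± 0.908 FPKM in the Swd3 knockout and 70.3 ± 4.85 FPKM in WT, while gene_4006 averaged 2.58 ± 1.09, 2.52 ± 0.642 and 10.4 ± 1.29 FPKM. The pair of gene_8207 and gene_8208 was of like level, with WT means of 18.3 and 20.2 FPKM, and gene_8208 kept 23.6% in the Set1 knockout and 24.0% in the Swd3 knockout.

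Another 3 pairs of members lay 2 numbers apart, and their genes were named after their values were seen. Gene_757 had 5.34, 4.34 and 4.84 FPKM in the Set1 knockout and 5.12, 4.41 and 4.98 FPKM in the Swd3 knockout, against 39.0, 36.5 and 38.5 FPKM in WT. Gene_759 had 7.56, 6.43 and 7.25 FPKM in the Set1 knockout and 7.45, 8.91 and 7.80 FPKM in the Swd3 knockout, against 42.5, 42.7 and 45.8 FPKM in WT. Between them, gene_758 was nearly silent in every strain, at 0.0423 to 0.626 FPKM in the Set1 knockout, 0.108 to 0.340 FPKM in the Swd3 knockout and 0.0880 to 0.222 FPKM in WT.

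The members gene_9873 and gene_9875 lay in a stretch of neighbours that were lower in both knockouts without reaching the limits for a run. The log2 change of gene_9874 between them was -0.90 in the Set1 knockout and -1.11 in the Swd3 knockout. Gene_9876 had changes of -0.77 and -0.81, and gene_9877 of -0.51 and -0.99, in the same order. Between gene_6544 and gene_6546 no row was analysed here. Gene_6543 below them had changes of -0.79 in the Set1 knockout and -0.72 in the Swd3 knockout, and gene_6547 above them had changes of 0.82 and 0.75.

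**Figure D5:**
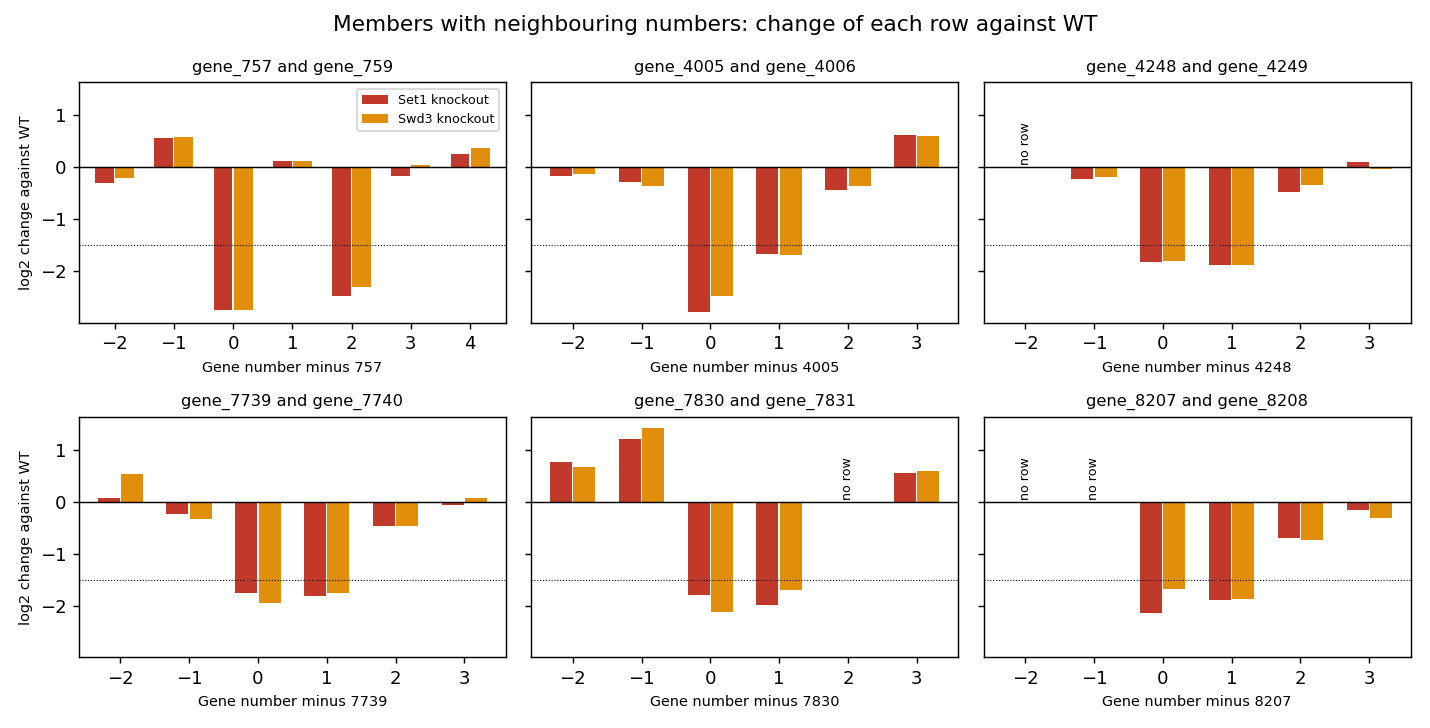
Log2(FPKM + 1) change against WT of each row around 6 pairs of members, by gene number relative to the first of the pair, with Set1 knockout bars left of Swd3 knockout bars and the limit of -1.5 dotted. Members reach the limit and the plotted rows around them stay between -0.72 and 1.43, while numbers marked as having no row were not analysed here.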

How the data were processed

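Per the labels, 9 RNA-seq libraries of mycelium (3 Set1 knockout, 3 Swd3 knockout, 3 WT) were prepared with a SMARTER mRNA-seq kit. The authors deposited 1 table of FPKM values with a column per library, which are named after the sample titles. FastQC, HISAT2 and StringTie are named per the submitters' processing notes. Their versions and settings, and the genome build, annotation and strandedness, remain not given in the sources used here. Reads of overlapping or near-identical genes may therefore be split in ways that cannot be traced.

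The members and all lists were chosen with earlier results of these data known. The choice was applied to group means of the deposited FPKM with a pseudocount of 1, with no scaling between libraries (Python 3.11.15, pandas 2.3.3). A number not in the table ends a run. Log2(FPKM + 1) of the 9153 genes with at least 1 FPKM in at least 3 libraries was fitted with limma 3.58.1 in R 4.3.3 (1 mean per group, all 9 libraries, intensity trend). P-values were two-sided and adjusted by Benjamini-Hochberg over all of them, with a threshold of 0.05. Log2 changes understate those of low genes.

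Genes named are the 5 members of lowest mean change, the 3 of highest WT level, the 3 at each end of the difference between knockouts, the median member, adjacent members and the genes at each limit. Others are said to be named after their values were seen. The labels name no shared batch for a number, and same-number libraries were not taken as pairs. Their deviations correlated above 0.1 in 4 of 9 pairs, which does not decide whether they belong together. Counts from a fit with a replicate block are given below.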

Additional observations from a re-analysis of the deposited data

How the results depend on the processing

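The number of members was 127 and stayed within 1.5 times of this under each alternative planned, except a fall limit of -1.3, which gave 200. Leaving out 1 library gave 125 to 134, of which at least 122 were among the 127. Scaling by the median of ratios kept 108 of them and quantile normalization 95. Counting rows in number order as consecutive, an alternative chosen after seeing the data, left 124. The 126 calls of a fall in each knockout did not change when 1 library was left out. The 16 members that differed between the knockouts ranged from 8 to 25 when 1 library was left out, and were 8 when the knockouts were fitted without WT. With the replicate block they were 19 of 126, where 712 of all 9153 tested genes were higher and 657 lower in the Swd3 knockout. With this block 126 falls were called in each knockout as before, where 4027 of all tested genes were lower in the Set1 knockout and 3972 in the Swd3 knockout. The median log2 change ranged from -1.92 to -1.86 in the Set1 knockout and from -1.95 to -1.87 in the Swd3 knockout when 1 library was left out. It was -2.07 in the Set1 knockout and -2.06 in the Swd3 knockout with a pseudocount of 0.1, and -1.97 in the Set1 knockout with a pseudocount of 0.5, by construction of the scale. Read depth is unknown, which limits statements on members near 1 FPKM in the knockouts.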
